A study of Mus musculus with 36 samples.

Results

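The transcripts of the mouse mitochondrial genome were followed in mice labelled Control, Dnmt3aKO or Tet2KO, in blood stem cells of all 3 genotypes and in progenitors of Control and Tet2KO mice. Dnmt3a and Tet2 encode regulators of DNA methylation. The mitochondrial transcripts were chosen by identifier as the run ENSMUST00000082387 to ENSMUST00000082423 with ENSMUST00000084013, which is mt-Nd4l, and make up 37 of the 138835 transcripts in the table. The rule uses identifiers and no measured value, though the choice was made with earlier results of these data known. The mitochondrial genome encodes 2 ribosomal RNAs, 22 transfer RNAs and 13 proteins.

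The RNA came from hematopoietic stem cells (HSCs) and from restricted progenitors (RPs) of C57BL/6 mice aged 8 weeks. Every group carried the Vav-driven Cre recombinase, which acts throughout the blood-forming lineage, so the Controls (Dnmt3a+/+, Tet2+/+) carry Cre as well. Tet2KO mice were Tet2 fl/fl. Dnmt3aKO mice are labelled Dnmt3a-KO, while the protocol writes their alleles as fl/fl "or +", so whether every animal had lost both copies is not settled by the labels. HSCs were sorted as Lin-, cKit+, Sca1+, CD150+, CD48- cells, and RPs were the CD150-, CD48+ cells of the same Lin-, cKit+, Sca1+ compartment. Each library came from a pool of male and female mice, given in one place as 2 of each sex and in another as 3. Control and Dnmt3aKO HSCs had 3 libraries each, while Tet2KO HSCs and both RP groups, Control and Tet2KO, had 4 each. HSC libraries keep the numbers of their titles, and RP libraries are called a to d. The p-values measure the spread between these pools.

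Mitochondrial DNA is read from promoters on both strands into long precursor RNAs, which are cut, largely at the transfer RNAs, into single RNAs. Its messenger RNAs encode subunits of the respiratory chain and of ATP synthase, and its ribosomal and transfer RNAs serve the translation of these messages inside the organelle. HSCs are known for leaning on glycolysis more than their progeny do, and activation of respiration accompanies their exit from quiescence. The data therefore bear on whether RNA of the organelle's genome differs between stem cells and progenitors, or with loss of Dnmt3a or Tet2. No mitochondrial sequence was held in the sources used here, and none is printed.

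Libraries held 3721009 to 9366421 counts each. The HSC libraries numbered 4 were the only HSC libraries with scaling factors under 0.95, at 0.808 in Control, 0.741 in Dnmt3aKO and 0.912 in Tet2KO, and the share differences and fitted comparisons that use HSCs were also computed without them. Cell type markers and the levels of Dnmt3a and Tet2 were not analysed here, because no table used here pairs the transcript identifiers with genes. The labelled cell types and genotypes are therefore unchecked.

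Over all 18 libraries the 37 transcripts took 7627691 counts, and 9 of them held 99.96%. Each of these 9 had between 4917 and 288525 counts in every library. The other 28 transcripts had 3267 counts among them. Of these, 13 had no count in any library, which allows up to 0.0283 CPM (counts per 1000000 counts) over the pooled total of 105916372 counts. mt-Nd4l (ENSMUST00000084013.1), a subunit of complex I, was one of the 13. Another 6 had 3 to 84 counts in all and did not reach the minimum for testing, a count of about 10 in as many libraries as the smallest group holds. The remaining 9 were weak but tested, with 149 to 708 counts in all and 1 to 70 per library. In total 18 of the 37 passed the filter and 19 did not. Such intervals and limits cover counting error only.

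The counts were uneven along the block of identifiers. Arranged by identifier, with mt-Nd4l in the single gap of the run, at place 27, the 37 transcripts can be set beside the 37 genes of the mitochondrial genome in RefSeq (GRCm38.p6). Both lists have the same length, but the table does not pair them, so single transcripts keep their identifiers here and no gene is read from a place. In RefSeq the ribosomal RNAs stand at places 2 and 4, and protein-coding genes at 13 other places. The 9 abundant transcripts stood at places 2, 4, 6, 10, 16, 28, 32, 33 and 35, all among these 15 places. Transcripts at the 22 places of transfer RNAs had at most 66 counts in a library, and 9 of the 22 had none at all.

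A low stretch, taken from its first to its last protein-coding place, ran from place 19 to place 27. Its 9 transcripts held 371 counts in all libraries together, 326 of them on ENSMUST00000082411.1 at place 25, and 6 had none. Places 17 and 18, just before the stretch and transfer RNA places in RefSeq, had no count either. In RefSeq this stretch spans positions 7013 to 10173 of chromosome MT and holds 6 protein-coding genes, COX2, ATP8, ATP6, COX3, ND3 and ND4L. The count table does not show whether reads of this stretch were absent from the libraries or were not assigned in counting. Mouse chromosomes carry copies of stretches of mitochondrial DNA, and how reads that match several places or several features were treated is not given in the sources used here. The counts of the mitochondrial transcripts are uncertain for this reason, and its part in their levels was not tested.

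**Figure D1:**
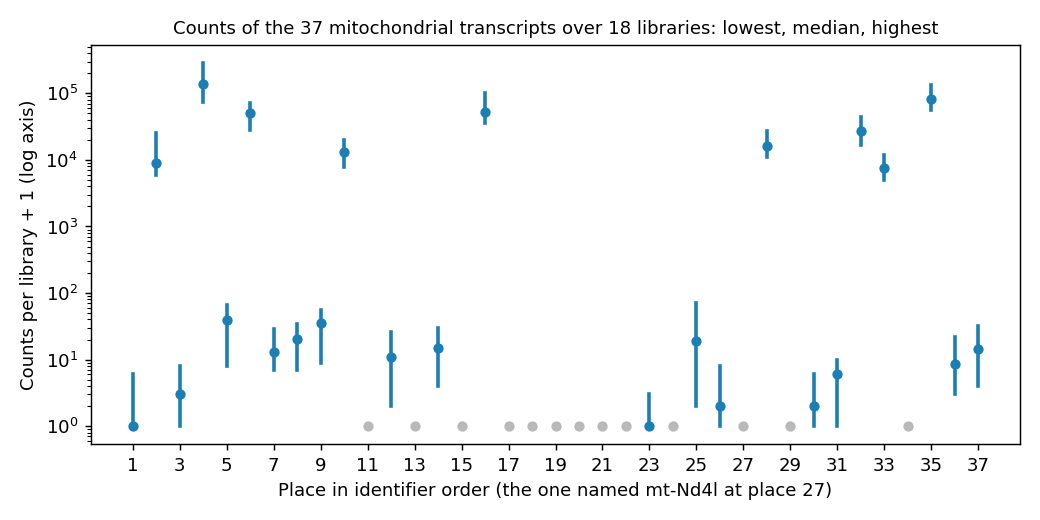
Counts of the 37 mitochondrial transcripts by place in identifier order. Points are medians and lines run from the lowest to the highest of 18 libraries, as counts plus 1 on a log axis, and grey points are the 13 transcripts with no count. The 9 abundant transcripts stand clear of all others, and 6 of the 9 places from 19 to 27 are empty.

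The share of all counts that fell on the mitochondrial transcripts differed more between libraries of one group than between groups. It was 7.91%, 7.42% and 5.65% in Control HSCs 2, 3 and 4. In Dnmt3aKO HSCs 1, 2 and 4 it was 9.78%, 6.34% and 4.41%. Tet2KO HSCs 1 to 4 had 9.40%, 7.21%, 6.08% and 6.57%. The Dnmt3aKO libraries thus held the highest and the lowest share of all HSCs. Control RPs a to d had 9.11%, 8.72%, 7.24% and 5.77%, and Tet2KO RPs a to d had 7.76%, 7.30%, 10.9% and 5.40%. From the lowest to the highest library the share varied 2.47-fold, while the 95% Wilson interval of a single library was at most ± 0.0294 percentage points. In bulk RNA, fewer cells of a type and less RNA per cell cannot be told apart.

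Group means were 6.99% ± 1.19 (SD, n = 3) in Control HSCs, 6.85% ± 2.72 (n = 3) in Dnmt3aKO HSCs and 7.31% ± 1.47 (n = 4) in Tet2KO HSCs. They were 7.71% ± 1.52 (n = 4) in Control RPs and 7.84% ± 2.29 (n = 4) in Tet2KO RPs. All 5 ranges overlapped, and neighbours in the order of means lay within their spread. Tet2KO HSCs exceeded Control HSCs by 0.319 percentage points against a pooled SD of 1.36, and Dnmt3aKO HSCs lay at -0.147 points from Control HSCs against a pooled SD of 2.10. RPs exceeded HSCs by 0.717 points in Controls (pooled SD 1.40) and by 0.530 points in Tet2KO (pooled SD 1.92). Tet2KO and Control RPs differed by 0.133 points (pooled SD 1.94). The share is a sum over the chosen transcripts, so no p is given for it.

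The HSC libraries numbered 4 weighed on these small differences. Without them the Tet2KO difference from Control HSCs was -0.105 points, the Dnmt3aKO difference from Control HSCs was 0.396 points, and Control RPs exceeded Control HSCs by 0.0432 points. The deepest library had the lowest share in Tet2KO HSCs, Control RPs and Tet2KO RPs, but not in Control or Dnmt3aKO HSCs. The part of depth in the shares was not tested.

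**Figure D2:**
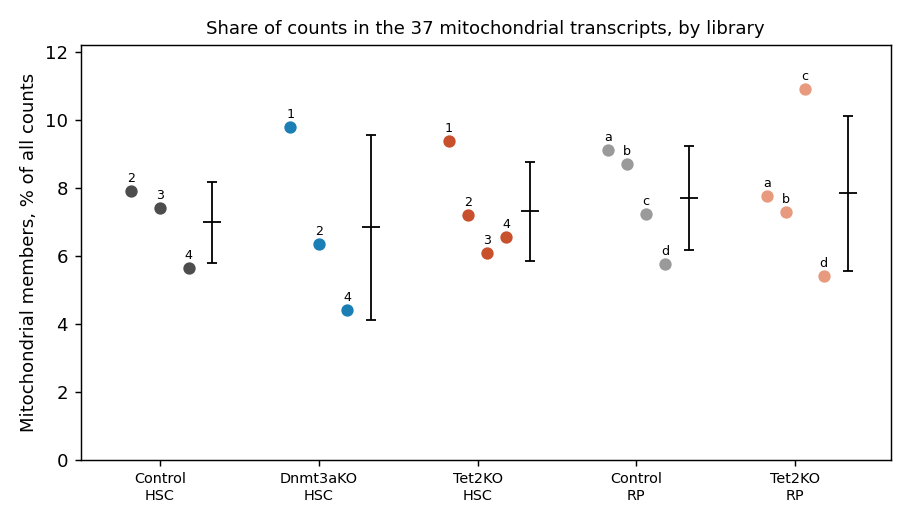
Share of all counts on the 37 mitochondrial transcripts, in percent, by group. Each point is a library, marked with its number or letter, and bars show the group mean ± SD. Libraries range from 4.41% to 10.9%, and the 5 groups overlap.

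The abundant transcripts were taken one by one, as CPM of the TMM-scaled library size. CPM is not corrected for length, so it compares one transcript between libraries and does not rank the transcripts by molecules. ENSMUST00000082390.1 took 34.8% of all mitochondrial counts. It was at 25594, 25790 and 20353 CPM in Control, 37070, 23828 and 14691 CPM in Dnmt3aKO and 31331, 22259, 16327 and 23827 CPM in Tet2KO HSCs. In RPs it was at 37076, 36414, 28628 and 18884 CPM in Control and 26639, 25346, 36582 and 16178 CPM in Tet2KO libraries. It was low in Dnmt3aKO HSC 4 and high in Dnmt3aKO HSC 1, Control RPs a and b and Tet2KO RP c, and all groups overlapped.

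ENSMUST00000082421.1 was next, with 21.4% of mitochondrial counts. Its HSC levels were 14626, 20141 and 16922 CPM in Control, 15928, 12163 and 14741 CPM in Dnmt3aKO and 19044, 14867, 12483 and 15976 CPM in Tet2KO. Its RP levels were 17508, 16606, 16189 and 12134 CPM in Control and 13713, 13266, 23516 and 13293 CPM in Tet2KO. Tet2KO RP c lay far above the other Tet2KO RPs and was the highest of all libraries. ENSMUST00000082402.1 followed with 13.03% of the counts. HSCs held 10016, 8218 and 9641 CPM of it in Control, 13232, 9583 and 11637 CPM in Dnmt3aKO and 10960, 8536, 6547 and 9844 CPM in Tet2KO. RPs held 11180, 10453, 9517 and 7581 CPM in Control and 8117, 8351, 12777 and 6994 CPM in Tet2KO. The highest HSC libraries were Dnmt3aKO 1 and 4, but Dnmt3aKO 2 lay within the range of Controls.

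ENSMUST00000082392.1 took 12.2% of the counts. In HSCs it reached 7145, 7632 and 10831 CPM in Control, 8616, 5986 and 8275 CPM in Dnmt3aKO and 10274, 8145, 6655 and 9743 CPM in Tet2KO. In RPs it reached 10888, 10200, 9628 and 7016 CPM in Control and 9564, 7797, 15109 and 10050 CPM in Tet2KO. All groups overlapped, with Tet2KO RP c again highest. ENSMUST00000082418.1 (6.76%) lay at 4883, 3967 and 4211 CPM in Control, 5241, 3900 and 3299 CPM in Dnmt3aKO and 6024, 5367, 4084 and 4851 CPM in Tet2KO HSCs. RP libraries gave 6162, 6898, 5831 and 3654 CPM in Control and 5514, 5088, 6348 and 4556 CPM in Tet2KO. Control RP d was lower than every Control HSC for this transcript, while the other Control RPs were higher.

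ENSMUST00000082414.1 (4.14%) was the steadiest, at 3015, 2966 and 3087 CPM in Control, 3464, 2360 and 2546 CPM in Dnmt3aKO and 3523, 2883, 2542 and 3085 CPM in Tet2KO HSCs. Among RPs it was at 3550, 3786, 3293 and 2345 CPM in Control and 3110, 2631, 4138 and 2562 CPM in Tet2KO. Its coefficient of variation over the 18 libraries was 16.6%, against 38.1% for ENSMUST00000082388.1. ENSMUST00000082396.1 (3.33%) was at 1998, 2138 and 2313 CPM in Control, 2262, 1662 and 2106 CPM in Dnmt3aKO and 3004, 2319, 1862 and 2394 CPM in Tet2KO HSCs. For RPs the values were 3011, 3455, 2748 and 2049 CPM in Control and 2665, 2106, 4221 and 2431 CPM in Tet2KO. Again 3 of 4 Control RPs lay above all Control HSCs and library d did not.

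ENSMUST00000082419.1 (1.85%) was at 1549, 1009 and 1127 CPM in Control, 1499, 1108 and 967 CPM in Dnmt3aKO and 1570, 1432, 993 and 1316 CPM in Tet2KO HSCs. Control RPs had 1701, 1961, 1274 and 981 CPM and Tet2KO RPs 1612, 1495, 2114 and 1143 CPM. All groups overlapped. ENSMUST00000082388.1 (2.50%) was the exception among the abundant transcripts. It was at 2829, 3094 and 1800 CPM in Control, 3291, 1764 and 1551 CPM in Dnmt3aKO and 1478, 1143, 955 and 1502 CPM in Tet2KO HSCs. Control RPs had 2295, 2549, 1586 and 1172 CPM and Tet2KO RPs 1899, 1435, 2199 and 966 CPM. Every Tet2KO HSC library lay below every other HSC library, by a narrow gap from Dnmt3aKO HSC 4, and both RP groups overlapped all HSC groups.

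The levels of ENSMUST00000082388.1 in Tet2KO and Control HSCs, 1269 ± 266 CPM (SD, n = 4) and 2574 ± 684 CPM (n = 3), gave a log2 fold change of -1.02 (SE 0.33, 95% interval -1.71 to -0.33). Its unadjusted p was 0.00559 and its adjusted p 0.222, from the quasi-likelihood test of edgeR, adjusted over 26820 transcripts by Benjamini-Hochberg, so the difference did not pass the threshold of 0.05. Without any filter on low counts the log2 fold change was again -1.02, but its SE was 0.21 in place of 0.33. The transcript then passed, with edgeR's adjusted p = 3.68e-04. Over all alternatives the adjusted p ranged from 3.68e-04 to 0.544, and leaving out the filter was the only choice under which it passed. In Dnmt3aKO HSCs (2202 ± 949 CPM, n = 3) it lay above Tet2KO HSCs by a log2 fold change of 0.79 (SE 0.33, edgeR, adjusted p = 0.365). There too it passed only without the filter (log2 fold change 0.82, SE 0.21, edgeR, adjusted p = 0.0156), and its adjusted p ranged from 0.0156 to 0.714. Leaving out Dnmt3aKO HSC 1 reduced that log2 fold change to 0.38.

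Between the cell types the Tet2 difference of this transcript was not shown to differ. The log2 fold change of Tet2KO against Control was higher by 0.79 in RPs than in HSCs (SE 0.45, 95% interval -0.14 to 1.73, edgeR, adjusted p = 0.979). Without the HSC libraries numbered 4 its log2 fold change in Tet2KO against Control HSCs was -1.34 (edgeR, adjusted p = 0.112).

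**Figure D3:**
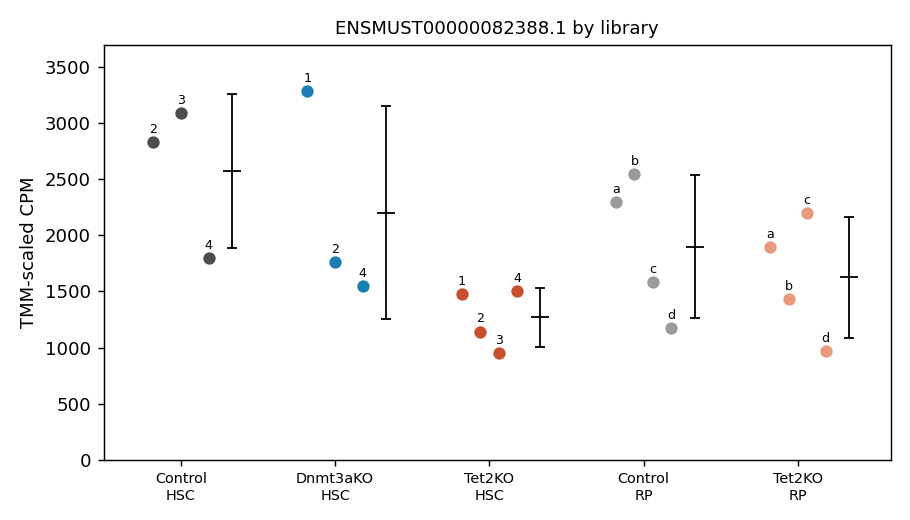
Level of ENSMUST00000082388.1 in TMM-scaled CPM, by group. Points are libraries and bars the mean ± SD. Tet2KO HSCs lie between 955 and 1502 CPM, below the other HSC libraries, which lie between 1551 and 3291 CPM.

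The same transcript was set against ENSMUST00000082390.1, the most counted one, within each library, which does not depend on scaling. ENSMUST00000082388.1 and ENSMUST00000082390.1 stand at places 2 and 4, where RefSeq has the ribosomal RNAs, and were paired by these places. The places do not identify the transcripts, since identifiers and genes are not paired. Per 100 counts of ENSMUST00000082390.1, Control HSCs 2, 3 and 4 had 11.1, 12.0 and 8.84 counts of ENSMUST00000082388.1. Dnmt3aKO HSCs 1, 2 and 4 had 8.88, 7.40 and 10.6, and Tet2KO HSCs 1 to 4 had 4.72, 5.14, 5.85 and 6.30. The Tet2KO HSC values lay apart from those of both other HSC groups. Control RPs a to d had 6.19, 7.00, 5.54 and 6.21, and Tet2KO RPs a to d had 7.13, 5.66, 6.01 and 5.97. On this ratio all 8 RP libraries lay below all Control and Dnmt3aKO HSCs and overlapped Tet2KO HSCs. The group means were 10.6 ± 1.62, 8.95 ± 1.58 and 5.50 ± 0.71 in Control, Dnmt3aKO and Tet2KO HSCs, and 6.23 ± 0.60 and 6.19 ± 0.64 in Control and Tet2KO RPs. This ratio was looked at after the levels were seen, and it is given as a description.

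The division of mitochondrial counts among the 9 abundant transcripts varied less than their levels. Over the 18 libraries the coefficient of variation of ENSMUST00000082390.1 was 28.5% for its TMM-scaled CPM and 12.5% for its percentage of mitochondrial counts. For ENSMUST00000082414.1 the values were 16.6% and 6.50%, and for ENSMUST00000082388.1 they were 38.1% and 30.2%. The ratio of the highest to the lowest percentage was 1.28 for ENSMUST00000082414.1 and 2.49 for ENSMUST00000082388.1, with the other 7 between. Percentages of one library sum to a whole, so they are not independent of each other.

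ENSMUST00000082402.1 took 14.6%, 15.4% and 19.4% of mitochondrial counts in Dnmt3aKO HSCs 1, 2 and 4. In Control HSCs 2, 3 and 4 it took 14.0%, 11.0% and 13.7%, and in Tet2KO HSCs 1 to 4 it took 12.6%, 12.7%, 12.5% and 13.6%. All 3 Dnmt3aKO libraries thus lay above the other HSCs on this percentage, although on TMM-scaled CPM the groups overlapped. In Dnmt3aKO HSC 4, where it was highest, ENSMUST00000082390.1 took 24.5%, its lowest percentage in any library. ENSMUST00000082388.1 took 3.95%, 4.13% and 2.56% in Control, 3.63%, 2.83% and 2.59% in Dnmt3aKO and 1.69%, 1.71%, 1.82% and 2.07% in Tet2KO HSCs. The Tet2KO values were the lowest of the HSCs here too, but they rest on the same counts as the levels and the ratio above.

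Over the 9 abundant transcripts and 6 comparisons, 8 of 54 pairs of groups did not overlap on this percentage, and no share over all transcripts exists to set beside that count. On TMM-scaled CPM, ENSMUST00000082388.1 was the only one of the 9 without overlap, in Tet2KO against Control HSCs and in Dnmt3aKO against Tet2KO HSCs. Groups this small can also lie apart by chance. Both ENSMUST00000082402.1 in Dnmt3aKO against the other HSC groups and ENSMUST00000082388.1 in Tet2KO against the other HSC groups, described above, were among the 8. ENSMUST00000082402.1 also took less in Tet2KO RPs than in Tet2KO HSCs, at means of 11.9% and 12.8%. ENSMUST00000082396.1 took more in Tet2KO than in Control HSCs, at 3.44% and 2.98%. Dnmt3aKO HSCs lay below Tet2KO HSCs for ENSMUST00000082418.1, at 5.85% and 7.35%, and for ENSMUST00000082419.1, at 1.68% and 1.91%. These percentages were not tested.

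**Figure D4:**
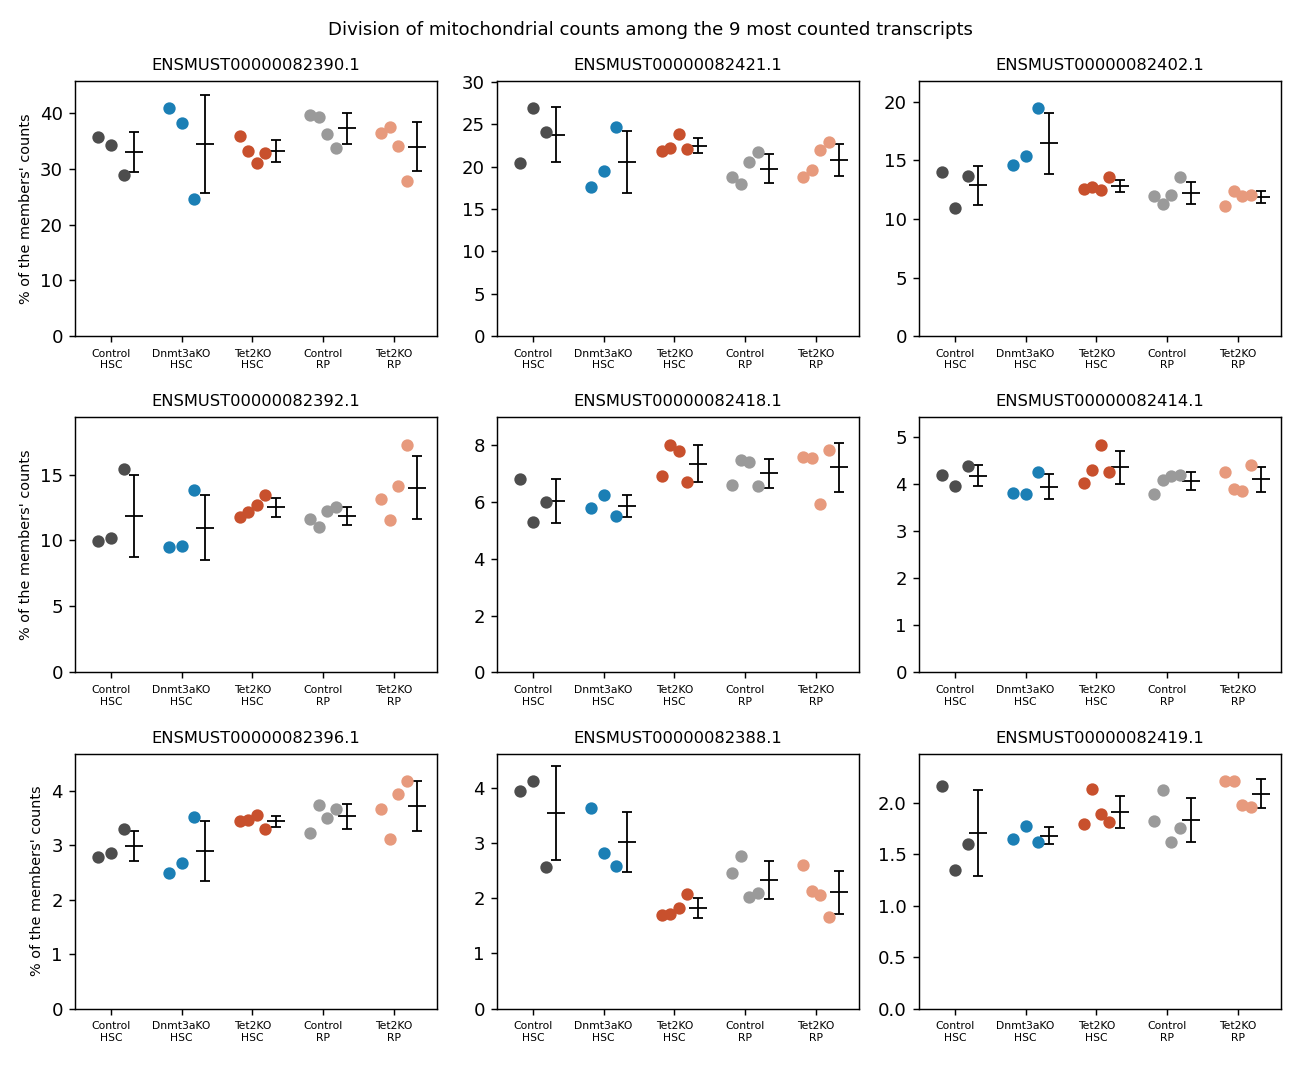
Percentage of each library's mitochondrial counts taken by each of the 9 abundant transcripts, by group. Points are libraries, bars the group mean ± SD, and each panel starts at 0. For ENSMUST00000082388.1 the Tet2KO HSCs lie lowest of the HSCs (1.69% to 2.07%), and for ENSMUST00000082402.1 the Dnmt3aKO HSCs lie highest (14.6% to 19.4%).

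Among the weak transcripts, the 4 most counted were ENSMUST00000082391.1, ENSMUST00000082395.1, ENSMUST00000082411.1 and ENSMUST00000082394.1. ENSMUST00000082391.1 was at 2.56, 5.48 and 6.59 CPM in Control, 4.88, 1.49 and 7.28 CPM in Dnmt3aKO and 8.56, 6.90, 3.60 and 7.86 CPM in Tet2KO HSCs. It was at 11.2, 18.8, 6.13 and 5.31 CPM in Control and 11.6, 7.83, 8.17 and 6.17 CPM in Tet2KO RPs. Control RP b stood highest, and all groups overlapped. ENSMUST00000082395.1 was at 4.94, 5.48 and 5.20 CPM in Control, 5.91, 1.70 and 7.47 CPM in Dnmt3aKO and 4.53, 4.24, 4.06 and 3.63 CPM in Tet2KO HSCs. RPs had 8.24, 7.12, 8.04 and 5.06 CPM of it in Control and 9.37, 5.59, 12.3 and 5.36 CPM in Tet2KO. Tet2KO HSCs lay narrowly below Control HSCs and below all Tet2KO RPs.

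ENSMUST00000082411.1 was at 2.56, 0.782 and 0.600 CPM in Control, 1.16, 0.850 and 0.197 CPM in Dnmt3aKO and 4.37, 2.06, 1.75 and 1.41 CPM in Tet2KO HSCs. In RPs it was at 4.01, 19.9, 4.65 and 1.26 CPM in Control and 4.46, 4.29, 6.35 and 4.71 CPM in Tet2KO. Control RP b, with 70 counts, stood far above every other library. This transcript, at place 25, belongs to the low stretch described above. ENSMUST00000082394.1 was at 1.83, 3.13 and 3.00 CPM in Control, 2.06, 1.28 and 4.33 CPM in Dnmt3aKO and 2.01, 3.15, 3.04 and 2.01 CPM in Tet2KO HSCs. It reached 2.96, 6.55, 4.44 and 2.53 CPM in Control and 5.13, 3.54, 4.76 and 2.92 CPM in Tet2KO RPs. The groups overlapped for this transcript. The other 5 weak transcripts had 1 to 31 counts in a library.

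Loss of Tet2 in HSCs was compared first. Of the 18 mitochondrial transcripts tested, 0 passed the threshold in Tet2KO against Control HSCs, while 0.198% of all 26820 transcripts did (edgeR). The median log2 fold change was 0.04 over the 18 and 0.10 over all transcripts, with 10 of the 18 above 0. Before adjustment 1 had a p under 0.05, ENSMUST00000082388.1, against 11.2% of all transcripts. DESeq2 also called 0 of them. Both ENSMUST00000082388.1 and ENSMUST00000082395.1 lay lower in Tet2KO without overlap, 2 of 18 against 2.69% of all transcripts, and 0 of 18 lay higher, against 5.31%. ENSMUST00000082395.1 was at 4.11 ± 0.38 and 5.21 ± 0.27 CPM (log2 fold change -0.34, SE 0.49, edgeR, adjusted p = 0.914). ENSMUST00000082400.1, with the second smallest p, was at 2.36 ± 0.65 CPM in Tet2KO and 1.37 ± 0.90 CPM in Control HSCs (log2 fold change 0.78, SE 0.73, edgeR, adjusted p = 0.822). It was 0.45 without Control HSC 3, 1.44 without Control HSC 4 and 1.28 without all HSC libraries numbered 4.

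Loss of Dnmt3a gave no mitochondrial transcript past the threshold either. In Dnmt3aKO against Control HSCs 0 of 18 passed (edgeR), against 0.0149% of all transcripts, and 0 had an unadjusted p under 0.05, against 7.75%. DESeq2 called 0. The median log2 fold change was -0.08 over the 18, of which 13 lay below 0, and 0 over all transcripts. The smallest p belonged to ENSMUST00000082402.1, at 11484 ± 1829 CPM in Dnmt3aKO and 9292 ± 949 CPM in Control HSCs (log2 fold change 0.31, 95% interval -0.20 to 0.81, edgeR, adjusted p = 0.870). Leaving out Control HSC 3 or Dnmt3aKO HSC 1 reduced it to 0.20 or 0.19. Next was ENSMUST00000082423.1, at 1.55 ± 0.79 against 2.74 ± 1.45 CPM (log2 fold change -0.80, SE 0.68, edgeR, adjusted p = 0.884). That fold change was -0.31 without Control HSC 3 and -0.44 without Dnmt3aKO HSC 2. Libraries of the 2 groups overlapped for all 18, whereas 3.88% of all transcripts lay higher and 4.09% lower without overlap.

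The 2 knockouts were compared directly in HSCs, where 0 of 18 passed in edgeR and in DESeq2. Of all transcripts 0.138% passed in edgeR. The median log2 fold change of Dnmt3aKO against Tet2KO was -0.14 over the 18, with 13 below 0, and -0.13 over all transcripts. ENSMUST00000082388.1, described above, was the 1 with an unadjusted p under 0.05, against 11.0% of all transcripts. It was also the 1 of 18 that lay higher without overlap, against 2.79%. ENSMUST00000082411.1 lay lower without overlap, 1 of 18 against 4.77%. Its levels were 0.735 ± 0.490 and 2.40 ± 1.34 CPM (log2 fold change -1.64, SE 0.86, edgeR, adjusted p = 0.502).

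In progenitors, Tet2KO against Control RPs, 0 of 18 passed in edgeR and in DESeq2, against 0.134% of all transcripts in edgeR. Before adjustment 0 had a p under 0.05, against 3.82%. The median log2 fold change was -0.06 over the 18, with 7 above 0, and 0.03 over all transcripts. ENSMUST00000082422.1 was the 1 of 18 that lay lower without overlap, against 1.92% of all transcripts, and 0 of 18 lay higher, against 2.70%. Control RPs had 1.99 ± 0.54 CPM of it and Tet2KO RPs 1.13 ± 0.23 CPM (log2 fold change -0.80, SE 0.74, edgeR, adjusted p = 1). ENSMUST00000082411.1 was at 4.95 ± 0.95 and 7.47 ± 8.44 CPM, a log2 fold change of -0.58 that turned to 0.59 without Control RP b and was -0.94 without Control RP d.

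RPs and HSCs were compared within each genotype. In Controls 0 of 18 passed (edgeR), against 1.90% of all transcripts, and in Tet2KO cells 0 of 18, against 1.81%. DESeq2 called 0 in both. An unadjusted p under 0.05 was reached by 1 transcript in each, against 14.8% and 10.3% of all transcripts. The fold changes lay mostly above 0. In Controls 16 of 18 were higher in RPs, with a median log2 fold change of 0.38 against 0.10 over all transcripts, and in Tet2KO cells 17 of 18, with a median of 0.31 against 0.02. For the 9 abundant transcripts alone the medians were 0.14 and 0.16. Transcripts of one library share its mitochondrial share, so these counts of signs are no more independent than the libraries are.

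For single transcripts between cell types, ENSMUST00000082411.1 was at 7.47 ± 8.44 CPM in Control RPs and 1.32 ± 1.08 CPM in Control HSCs (log2 fold change 2.47, SE 0.81, edgeR, adjusted p = 0.162). Without Control RP b the log2 fold change was 1.31, and this transcript belongs to the low stretch. ENSMUST00000082398.1 was at 3.19 ± 1.60 and 1.13 ± 0.29 CPM in the same groups (log2 fold change 1.47, SE 0.76, edgeR, adjusted p = 0.398). In Tet2KO cells ENSMUST00000082395.1 was at 8.14 ± 3.30 CPM in RPs and 4.11 ± 0.38 CPM in HSCs (log2 fold change 0.98, SE 0.45, edgeR, adjusted p = 0.459). It was the 1 of 18 that lay higher in RPs without overlap in this genotype, against 4.54% of all transcripts, and 0 lay lower, against 4.08%. In Controls 0 of 18 lay higher or lower without overlap, against 9.88% and 6.00%. In Tet2KO RPs against Tet2KO HSCs ENSMUST00000082411.1 had a log2 fold change of 1.04 (SE 0.73, edgeR, adjusted p = 0.761).

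The Tet2 difference in RPs was set against that in HSCs as an interaction. It passed for 0 of 18 mitochondrial transcripts and for 0% of all transcripts in edgeR, and for 0 of the 18 in DESeq2. Before adjustment 0 of 18 had a p under 0.05, against 5.35% of all. After ENSMUST00000082388.1, the smallest p belonged to ENSMUST00000082411.1, with a difference of log2 fold changes of -1.43 (SE 1.09). It was -0.27 without Control RP b and -2.32 without Control HSC 2.

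The precision of the comparisons was read from the 9 abundant transcripts. Standard errors of their log2 fold changes were 0.22 to 0.33 for Tet2KO against Control HSCs, 0.23 to 0.35 for Dnmt3aKO against Control HSCs and 0.20 to 0.30 for Tet2KO against Control RPs. In Tet2KO against Control RPs all 9 estimates lay between -0.23 and 0.17, and their 95% intervals reached from -0.86 to 0.65. In Dnmt3aKO against Control HSCs the estimates lay between -0.27 and 0.31, with intervals from -0.96 to 0.81. These ranges span 9 transcripts, and the interval of a single one is narrower. For ENSMUST00000082414.1 in RPs it ran from -0.48 to 0.36. A missed threshold does not show that levels were alike.

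**Figure D5:**
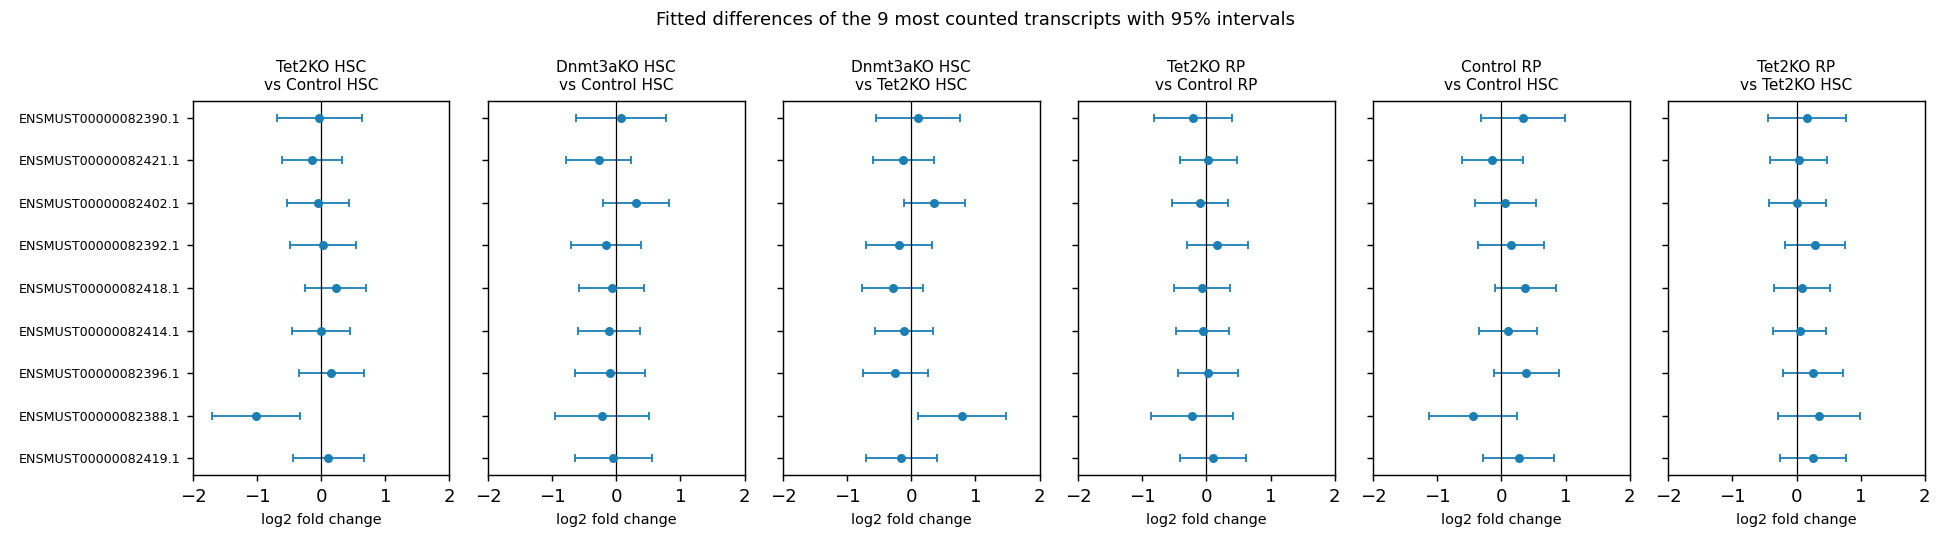
Fitted log2 fold changes of the 9 abundant transcripts in 6 comparisons, with 95% intervals from edgeR's fit. Intervals cross 0 except for ENSMUST00000082388.1 in Tet2KO against Control HSCs (-1.02) and in Dnmt3aKO against Tet2KO HSCs (0.79), neither of which passed after adjustment over all transcripts.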

How the data were processed

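The deposited table holds raw counts per Ensembl transcript. Among tools for both assays, HTSeq 0.8.0, STAR 2.0.4, Subread, featureCounts, edgeR 3.9 and the build mm10 are named in the submitters' processing notes. The sources used here do not give the counting tool, its strand setting or how shared reads were handled. Of 36 columns, 18 were used, with HSC columns matched to samples and RP columns to groups only. The other 18, whose names match no sample, were not used. HSC columns name a genotype and a number without a cell type. They were taken as HSCs, since the other columns used are marked as RP. Numbers of RP columns do not match the titles, so these libraries were assigned by group and lettered in column order. The 18 ATAC-seq samples were not analysed here.

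Transcripts were kept with filterByExpr (minimum count 10, minimum total 15), leaving 26820 with 98.92% of counts, while 58447 had none. All 18 libraries (3721009 to 9366421 counts) were fitted together by group with edgeR 4.0.16 (quasi-likelihood, TMM scaling, R 4.3.3). Benjamini-Hochberg adjustment covered all transcripts tested, at 0.05. The method was tested on simulated data. CPM is per 1000000 of the TMM-scaled library size, and errors are SDs. No molecular identifiers are recorded, so reads may not be independent molecules. DESeq2 1.42.0, other scalings, no filter, left-out libraries and a replicate block were alternatives. Same-numbered HSC libraries had correlations of deviations of 0.039 to 0.251, not all over 0.1, so the numbers were not used as pairs. The highest, 0.200 to 0.251, were those among the libraries numbered 4. Pairs of these with libraries of other numbers were all negative, from -0.193 to -0.061. The main fit does not model this shared deviation.

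Values in every library are given for the 13 transcripts with the highest mean CPM. For a comparison with no transcript past the threshold, the 2 with the smallest p are named. The transcripts and lists were chosen with earlier results of these data known. Lists of cell type markers and pathways could not be applied, as identifiers are not paired with genes.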

Additional observations from a re-analysis of the deposited data

Results flagged for a closer look

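In Tet2KO RPs, library c was at 23516 TMM-scaled CPM of ENSMUST00000082421.1, while the other 3 libraries lay between 13266 and 13713 CPM. The gap to the nearest library was 0.956 of the group's range, above the critical value of 0.829 for 4 libraries. The same library had the highest mitochondrial share of all, 10.9%. This was the 1 found among 57 sets of 4 libraries checked, and chance alone gives about 1 in 20. The cause was not tested.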

How the results depend on the processing

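Of 112 alternative counts of mitochondrial transcripts past the threshold, 110 were 0. The other 2 were 1, both without a filter on low counts and both ENSMUST00000082388.1. They fell in Tet2KO against Control HSCs and in Dnmt3aKO against Tet2KO HSCs. In each, the SE of this transcript's log2 fold change was 0.21, against 0.33 in the main fit. The cause was not tested. Leaving out 1 library gave 0 in every comparison. Over all transcripts the counts called moved more, from 53 to between 10 and 1001 (Tet2KO against Control HSCs), 4 to 0 and 291 (Dnmt3aKO against Control HSCs), 37 to 8 and 752 (Dnmt3aKO against Tet2KO HSCs), 36 to 27 and 241 (Tet2KO against Control RPs), 509 to 264 and 1500 (Control RPs against HSCs), 485 to 296 and 1078 (Tet2KO RPs against HSCs) and 0 to 0 and 241 (interaction). ENSMUST00000082411.1 changed sign in Tet2KO against Control RPs without Control RP b, and its log2 fold change ranged from -0.94 to 0.59 over left-out libraries. None of the 66 alternative differences in share moved by a pooled SD, but 17 changed sign. Leaving out 1 library at a time (or the HSC libraries numbered 4), they ranged from -0.375 to 0.777 points (Tet2KO against Control HSCs), -1.62 to 1.07 (Dnmt3aKO against Control HSCs), -1.94 to 0.750 (Dnmt3aKO against Tet2KO HSCs), -0.890 to 0.946 (Tet2KO against Control RPs), 0.0432 to 1.36 (Control RPs against HSCs) and -0.493 to 1.34 (Tet2KO RPs against HSCs).

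With a replicate block on the HSC libraries alone, 0 mitochondrial transcripts passed in each of the 3 HSC comparisons, as without the block. Over all transcripts the block called 10, 0 and 8, against 15, 0 and 11 without it (Tet2KO against Control, Dnmt3aKO against Control, Dnmt3aKO against Tet2KO). The block moved ENSMUST00000082402.1 in Dnmt3aKO against Control HSCs to a log2 fold change of 0.04, from 0.29 without it. Between RP groups no paired analysis was possible because the column numbers do not match the titles. Depth limits the 9 weak transcripts, with 1 to 70 counts per library, and 19 were not tested.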
